A study of Homo sapiens with 13 samples.

Results

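The loci described here are 8 genes known as targets and feedback regulators of canonical Wnt signalling: AXIN2, NKD1, RNF43, ZNRF3, LGR5, TNFRSF19, DKK1 and SP5. Their members are all deposited peaks that overlapped the gene span on hg19 or the 25 kb on either side of it, a window per gene and 1016 kb in all, which is 0.0328% of the genome span. The windows held 2523 of the 3429979 peaks in 12 peak lists, between 113 and 290 peaks in a list of 128863 to 395786.

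The peaks come from CUT&RUN, in which an antibody guides a nuclease to its target on chromatin and the DNA cut free is sequenced. The cells were Nalm6, a long-established line that came from acute lymphoblastic leukaemia of human B-cell precursors. An antibody to LEF1 or to TCF7L2 was used on control cells and on cells given the synthetic glucocorticoid prednisolone at 5 µM for 24 h, which makes 4 groups of 3 libraries. For the controls the labels give no treatment in one field and a vehicle in the protocol. All groups share the cell line and a medium with charcoal-stripped serum, from which steroids are depleted. The series describes the replicates as independent experiments. The title of the series sets glucocorticoid against canonical Wnt signalling, and the question asked of the loci was where the 2 Wnt factors had peaks and whether these differed after the glucocorticoid. Peak lists measure no expression, so the cell line could not be checked against marker genes, and a peak is not evidence that a gene is transcribed.

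In canonical Wnt signalling a Wnt ligand binds Frizzled and LRP receptors, the complex that destroys beta-catenin is held back, and beta-catenin enters the nucleus and binds factors of the TCF/LEF family, to which LEF1 and TCF7L2 belong. Among the genes these factors switch on are several that damp the pathway again, so that the response limits itself. AXIN2 is a scaffold of the destruction complex, NKD1 binds Dishevelled, RNF43 and ZNRF3 are membrane ubiquitin ligases that remove Frizzled receptors, and DKK1 is a secreted inhibitor that binds LRP receptors. LGR5 is a receptor for R-spondins, which hold RNF43 and ZNRF3 in check, and is known as a stem cell marker of the gut. SP5 is a zinc finger transcription factor and TNFRSF19 a receptor of the tumour necrosis factor receptor superfamily, both known as Wnt targets.

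TCF/LEF factors recognise a short core sequence. RefSeq promoters (GRCh38.p14, 250 bases before to 50 after each start) were matched for 4 of the 8 genes, DKK1, SP5, TNFRSF19 and RNF43, with 6 promoters in all. The 250 bases before the start are shown for the 2 genes whose windows held almost no strong peaks, SP5 and DKK1, and for the first of the 2 TNFRSF19 promoters as a contrast. Capitals mark the core motif, CTTTG followed by 2 bases that are each A or T, on either strand, so that TTCAAAG is a match read on the other strand.
SP5: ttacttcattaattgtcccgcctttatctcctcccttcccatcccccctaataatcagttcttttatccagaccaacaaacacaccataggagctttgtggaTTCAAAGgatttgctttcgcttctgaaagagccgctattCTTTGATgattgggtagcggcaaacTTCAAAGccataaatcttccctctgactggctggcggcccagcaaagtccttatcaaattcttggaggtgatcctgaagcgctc
DKK1: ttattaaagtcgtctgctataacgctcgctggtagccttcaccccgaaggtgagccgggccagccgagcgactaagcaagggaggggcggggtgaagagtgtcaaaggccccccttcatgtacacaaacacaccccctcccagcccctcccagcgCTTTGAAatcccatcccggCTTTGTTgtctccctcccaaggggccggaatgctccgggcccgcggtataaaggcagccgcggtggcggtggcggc
TNFRSF19: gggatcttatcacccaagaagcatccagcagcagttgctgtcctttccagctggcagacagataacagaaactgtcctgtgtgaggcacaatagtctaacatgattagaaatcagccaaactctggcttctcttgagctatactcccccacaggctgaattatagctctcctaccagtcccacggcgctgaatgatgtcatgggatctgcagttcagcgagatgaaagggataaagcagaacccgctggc
The SP5 promoter held 3 such matches and the DKK1 promoter 2, while both TNFRSF19 promoters and both RNF43 promoters held 0. Of the 35116 RefSeq promoters searched, 13.8% held a match within the 300 bases, 12% within the 250 bases before the start and 1.21% held 2 or more there. The palindromic glucocorticoid receptor motif was in 0 of the 6 promoters and in 0.00285% of all. These matches describe the letters of the sequence only.

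Each list was restricted to its 20000 peaks of lowest p-value, called top peaks, because the lists differed in length. A peak is described by its rank in its own list, where 1 is the strongest, and by the authors' fold enrichment over the background modelled by MACS2. The last top peak had a −log10 q-value of 5.49 to 6.62 in the LEF1 lists but of 0.39 to 0.996 in the TCF7L2 lists, so a TCF7L2 rank near 20000 belongs to a weak peak. The libraries also fell into sets by their shortest peak, the same sets for both antibodies: control 1 and prednisolone 2 and 3 formed the first set (164 to 165 bp for LEF1, 193 to 201 bp for TCF7L2), and control 2 and 3 and prednisolone 1 the second (187 to 197 bp and 158 to 167 bp). What distinguishes the sets is not given in the sources used here, and their part in the results was tested only by the differences within each set given below.

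The top peaks of all 12 lists merged into 94421 regions, of which 72 lay in the windows. ZNRF3 had 25 of them, LGR5 16, RNF43 14, NKD1 8, AXIN2 3, TNFRSF19 3, DKK1 2 and SP5 1. Top peaks of both antibodies were present in 31 of the 72 regions, or 43.1%, against 19.8% of all regions. LEF1 alone had 14 and TCF7L2 alone 27. A top peak in a single library made up 30 of the 72 (41.7%), against 62.9% of all regions. Exactly 5 regions had a top peak in all 12 lists, a region each at AXIN2, NKD1, RNF43, ZNRF3 and LGR5, whereas 673 of all 94421 regions (0.713%) did so. In 28 regions all 3 libraries of at least 1 group had a top peak, and 21 of these lay inside a gene span or across its end. DKK1 and SP5 had no such region.

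**Figure D1:**
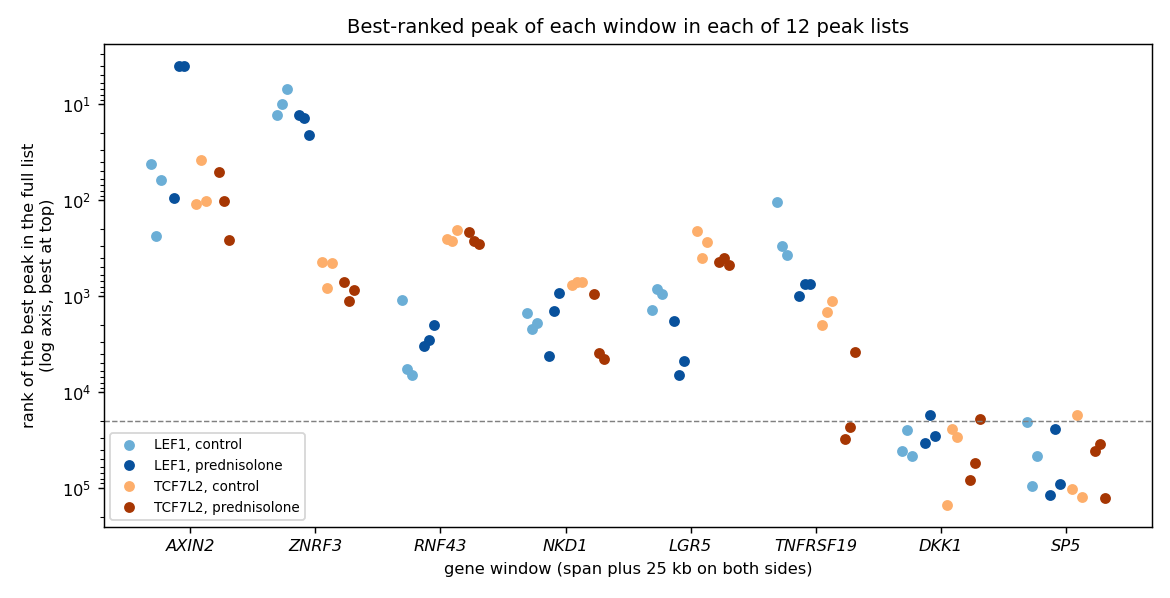
Rank of the best peak in each window (y axis, log scale, best at top) for the 12 full peak lists, 1 point per library, coloured by antibody and treatment; the dashed line is rank 20000. AXIN2 and ZNRF3 reached ranks of 4 and 7 with LEF1, while nearly all DKK1 and SP5 points lie below the dashed line.

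AXIN2 held the region whose worst rank over the 12 lists was the best of the 8 loci. The region across its start, chr17:63551393-63558743 (7351 bp, reaching into the gene), ranked 42, 239 and 62 in the LEF1 control libraries and 95, 4 and 4 after prednisolone. In the TCF7L2 lists it ranked 110, 38 and 103 in the controls and 51, 102 and 264 after prednisolone. All 12 values were thus at or better than 264, and only 2 of the 94421 regions, this one included, reached that in all 12 lists. The fold enrichments were 12.2, 8.75 and 8.86 against 11.4, 18.4 and 16.2 with LEF1, and 18.5, 23.4 and 30.7 against 21.8, 20.5 and 5.88 with TCF7L2, control against prednisolone in each case. Control and prednisolone ranks overlapped with both antibodies. The mean log2 rank was higher with TCF7L2 by 1.55 ± 1.08 (SE; exact permutation p = 0.215), so the antibodies did not differ beyond the spread, and the sign turned with the ranking: by fold the difference was -2.43. It also turned between the sets, at 4.04 in the first and -0.94 in the second. The 6 LEF1 summits lay within 337 bp of each other.

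Another AXIN2 region lay 7.0 kb before the start, at chr17:63563988-63566106. It ranked 8503, 2756 and 2963 in the TCF7L2 controls and 1875, 1585 and 2294 after prednisolone, the only TCF7L2 region of the windows with all prednisolone ranks better. With LEF1 it had no top peak in 4 libraries and ranked 1887 and 6655 in prednisolone 2 and 3. The log2 rank was lower with TCF7L2 by 2.01 (log2 rank difference -2.01 ± 0.67, SE; exact permutation p = 0.01). All 6 full LEF1 lists held a peak there, with folds of 3.42 to 15.5 and −log10 q-values of 2.12 to 28.5. With TCF7L2 the folds were 4.10 to 6.51 and the −log10 q-values 1.83 to 5.79. The order is thus one of ranks within lists and not of fold or q-value. The last AXIN2 region, 2.1 kb before the start at chr17:63559623-63560610, had top peaks with TCF7L2 only, ranked 10735, 8989 and 6518 in the controls and 13171 in prednisolone 1, with none in prednisolone 2 and 3. All 6 full LEF1 lists held a peak there as well, below the LEF1 cut. Its folds were 2.30 to 4.22 and its −log10 q-values 0.85 to 4.51. In the 6 full TCF7L2 lists the folds were 2.30 to 3.87 and the −log10 q-values at most 2.88.

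ZNRF3 held the LEF1 region with the best median rank of the windows, 13. It lay inside the gene, 34.4 kb from the start, at chr22:29312552-29316296, and ranked 13, 10 and 7 in the control libraries and 13, 14 and 21 after prednisolone. Its fold enrichment was 22.2 to 26.2 in the 6 LEF1 libraries. Only 6 LEF1 regions of the genome, this one included, held a rank of 21 or better in all 6 lists. With TCF7L2 the same region ranked 444, 1249 and 585 in the controls and 17154, 1115 and 865 after prednisolone, with fold enrichments of 8.57, 4.47 and 9.02 against 2.42, 4.45 and 4.77. All LEF1 ranks were better than all TCF7L2 ranks, by 6.75 ± 0.80 on the log2 scale (SE; exact permutation p = 0.005, the smallest the design allows). Full separation of the antibodies always gives this p. In regions named because they were separated it therefore restates the choice and is no further support. The p-values given for single regions are unadjusted.

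At the ZNRF3 start the order of the antibodies by rank was the opposite. The region chr22:29278359-29280408 ranked 1552, 820 and 450 in the TCF7L2 controls and 722, 2719 and 891 after prednisolone. LEF1 had no top peak there in the controls and prednisolone 1, and ranked 11663 and 8469 in prednisolone 2 and 3. The log2 rank difference was -3.99 ± 0.43 (SE; exact permutation p = 0.005), and all TCF7L2 ranks were better than all LEF1 ranks. The peaks were weak by fold with both antibodies, 2.38, 2.99 and 5.13 in the TCF7L2 controls, 3.18, 1.88 and 2.76 after prednisolone, and 2.56 and 2.87 for the 2 LEF1 top peaks. The LEF1 top peaks had −log10 q-values of 9.79 and 11.7, above the 2.46 of TCF7L2 prednisolone 2, so the order is one of ranks within lists and not of fold or q-value. Ranked by fold, the ranks of the antibodies overlapped. 2 LEF1 peaks deeper in the gene had no TCF7L2 top peak in any library. The first, 146.6 kb from the start at chr22:29425683-29427542, ranked 1364, 5566 and 6287 with LEF1 in the controls and 5135, 1196 and 1049 after prednisolone (log2 difference 2.94 ± 0.50, SE; exact permutation p = 0.005). The other, 49.0 kb from the start, ranked between 6510 and 18466 with LEF1 (difference 0.84 ± 0.26, SE; exact permutation p = 0.005).

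In the window of RNF43, the partner of ZNRF3, the strong peaks lay away from the gene start. Within 2 kb of the start no LEF1 library and a single TCF7L2 library had a top peak. The region at the other end of the gene, chr17:56428308-56431910, 64.9 kb from the start, ranked 253, 265 and 206 in the TCF7L2 controls and 213, 269 and 285 after prednisolone, with folds of 9.09, 9.63 and 14.3 against 12.4, 7.78 and 6.86. These 6 ranks hardly varied, and 223 TCF7L2 regions of the genome, counting this one, were as good in all 6 lists. With LEF1 it had no top peak in control 1, ranked 15790 and 14681 in control 2 and 3, and 5212, 4687 and 5054 after prednisolone, so that all 3 prednisolone ranks were better. The log2 rank difference between the antibodies was -5.21 ± 0.40 (SE; exact permutation p = 0.005), with TCF7L2 better throughout.

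A further RNF43 region had top peaks in all 12 lists, 80.0 kb from the start and outside the span, at chr17:56412495-56417510. It ranked 1092, 5737 and 6613 (control) and 3311, 2906 and 2020 (prednisolone) with LEF1. With TCF7L2 it ranked 1245, 1211 and 1932 and then 1198, 1877 and 1260. The treatments overlapped with both antibodies, and the antibodies differed by -1.10 ± 0.42 in log2 rank (SE; exact permutation p = 0.055). In the RefSeq gene order by coordinate, MIR142, MIR4736 and SUPT4H1 lie on the side of the far end of RNF43, as these regions do. HSF5 lies on the side of its start. Which gene the peaks beyond the span belong to cannot be read from the lists.

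LGR5 was the locus most broadly covered by LEF1 peaks. The region over its start, chr12:71831962-71843951, ran for 11990 bp and ranked 1391, 1707 and 955 in the LEF1 controls and 1836, 6710 and 4734 after prednisolone. With TCF7L2 it ranked 209, 403 and 274 in the controls and 438, 405 and 472 after prednisolone, with folds of 16.5, 9.83 and 16.2 against 9.52, 8.10 and 6.63. Every prednisolone rank was worse than every control rank with both antibodies, though by as little as 403 against 405 with TCF7L2. Within the sets the LEF1 log2 rank difference, prednisolone minus control, was 2.02 in the first and 0.52 in the second. With TCF7L2 it was 1.06 and 0.40. TCF7L2 ranked better than LEF1 throughout, with a difference of -2.68 ± 0.48 (SE; exact permutation p = 0.005). The TCF7L2 peaks here were narrower, 2776 to 4609 bp against 4439 to 11657 bp with LEF1, and their 6 summits lay within 71 bp. The 6 LEF1 summits were spread over 9494 bp, so the LEF1 values are not all of a like peak. In LEF1 prednisolone 1 the rank of 1836 was of a peak 5.476 to 9.915 kb from the start, and the peak at the start ranked 2615. In prednisolone 2 and 3 a single LEF1 peak ran from -1.936 to 9.721 kb and from -1.554 to 9.625 kb. Ranked by fold, the separation of control and prednisolone was lost with both antibodies.

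NKD1 was marked by both antibodies just before its start, at chr16:50579031-50582658. The LEF1 ranks were 1509, 2191 and 1935 in the controls and 4214, 1421 and 925 after prednisolone, and they overlapped. The TCF7L2 ranks were 763, 709 and 708 in the controls, and 957, 3922 and 4496 after prednisolone, all worse. Within the sets the TCF7L2 log2 rank difference, prednisolone minus control, was 2.46 in the first and 0.43 in the second. The antibodies did not differ beyond the spread (log2 difference -0.41 ± 0.60, SE; exact permutation p = 0.515), and the sign turned between the sets (0.92 and -1.74).

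TNFRSF19 had its best peak inside the gene, 48.4 kb from the start, at chr13:24191625-24193227. The LEF1 ranks were 105, 304 and 371 in the controls and 1000, 750 and 746 after prednisolone, with folds of 28.2, 23.1 and 21.0 against 18.7, 19.5 and 19.7. The TCF7L2 ranks were 1994, 1457 and 1119 in the controls, with folds of 6.27, 7.24 and 9.30, and no prednisolone library had a top peak. In the full TCF7L2 lists the peak appeared after prednisolone in replicate 3 alone, at rank 140522. The region thus ranked worse after prednisolone in all 3 libraries of both antibodies, and its log2 rank was better with LEF1 by 3.65 ± 0.98 (SE; exact permutation p = 0.005). At the start, chr13:24144106-24145869, LEF1 ranked 1122, 3529 and 3849 in the controls and 2131, 6630 and 2956 after prednisolone. TCF7L2 reached 17511 and 12942 in control 1 and 2 and had no other top peak there (difference 2.63 ± 0.37, SE; exact permutation p = 0.005). The promoter printed above for this gene holds no TCF/LEF core match.

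DKK1 and SP5, whose promoters hold several core matches, had almost no top peaks. Their windows were the shortest, at 53 and 52 kb. By bases under top peaks, the DKK1 window still exceeded 71.4% of genome stretches of its width with LEF1 and 45.0% with TCF7L2. The SP5 window exceeded 60.8% with TCF7L2 and had no LEF1 top peak. So few top peaks do not set these windows apart from stretches of like width. In the DKK1 window the best ranks were 41554, 25117 and 46414 (LEF1 control), 34321, 17444 and 28676 (LEF1 prednisolone), 150418, 24159 and 29600 (TCF7L2 control), and 83560, 55024 and 19227 (TCF7L2 prednisolone). A single LEF1 library and a single TCF7L2 library, both from prednisolone-treated cells, therefore had a top peak. All 6 full LEF1 lists held a peak overlapping the same stretch, chr10:54067893-54068831, 5.6 kb before the start, with folds of 3.65 to 5.73. In the SP5 window the best ranks were 20838, 96101 and 46040 (LEF1 control), 117525, 24450 and 90130 (LEF1 prednisolone), 103502, 17421 and 123902 (TCF7L2 control), and 41019, 35289 and 126405 (TCF7L2 prednisolone). Only TCF7L2 control 2 had a top peak, 20.9 kb before the start. Within 2 kb of the SP5 start no list had a top peak.

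**Figure D2:**
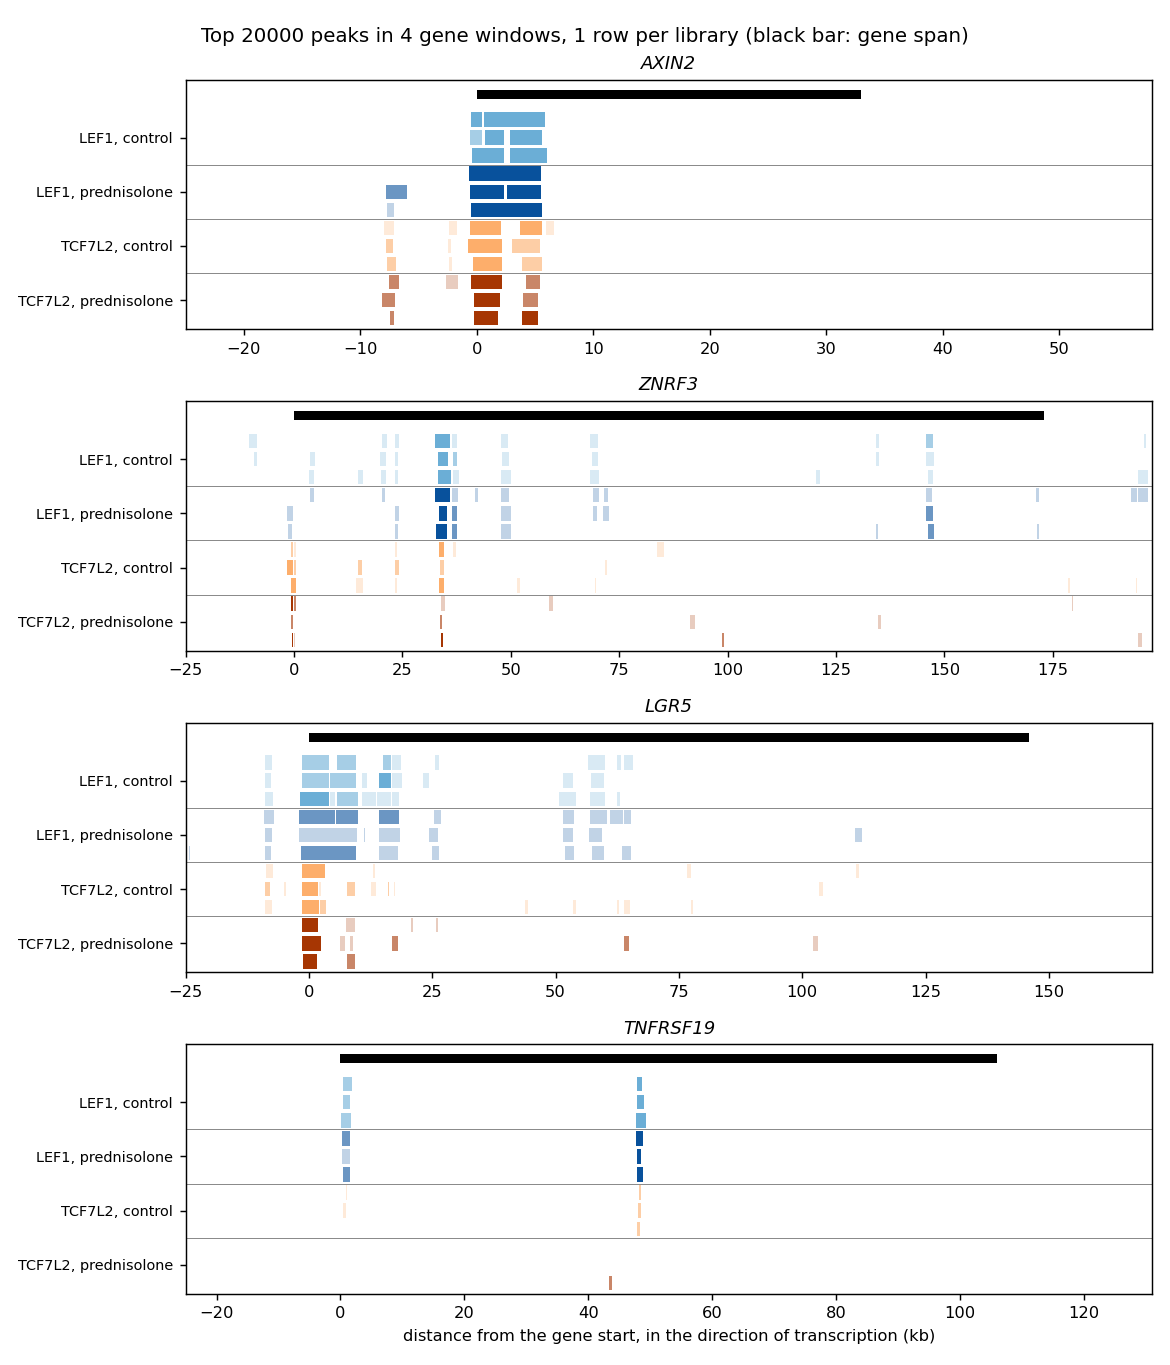
Top peaks in the windows of AXIN2, ZNRF3, LGR5 and TNFRSF19 by distance from the gene start in kb (x axis), 1 row per library grouped by antibody and treatment; darker bars have better ranks and the black bar is the gene span. The AXIN2 start and the ZNRF3 peak at 34.4 kb are present in all 12 rows, and the TNFRSF19 peak at 48.4 kb is absent from the 3 TCF7L2 prednisolone rows.

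The 2 antibodies were compared over all regions by exact permutation of the antibody labels within each treatment (two-sided, 400 relabellings, Benjamini-Hochberg adjustment). 0 of the 94421 regions passed an adjusted p of 0.05, that is 0.0% with LEF1 better and 0.0% with TCF7L2 better, and the lowest adjusted exact permutation p was 0.0989. The 9 regions of the windows with the smallest possible p of 0.005 had that value. Even the smallest possible p thus could not pass the adjustment, so the count of 0 does not show that the antibodies were alike. At an unadjusted p under 0.05, 7 regions of the windows had better ranks with LEF1 and 4 with TCF7L2, and genome-wide 7034 and 1946 did so. All 6 LEF1 ranks were better than all 6 TCF7L2 ranks in 6 of the 72 regions, against 3.07% of all regions: 3 at ZNRF3, 2 at TNFRSF19 and 1 at LGR5. The reverse held in 3 of the 72, against 1.13% of all regions: the starts of LGR5 and ZNRF3 and the far end of RNF43. The median log2 rank difference was -0.03 over the 72 regions and -0.05 over all regions.

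**Figure D3:**
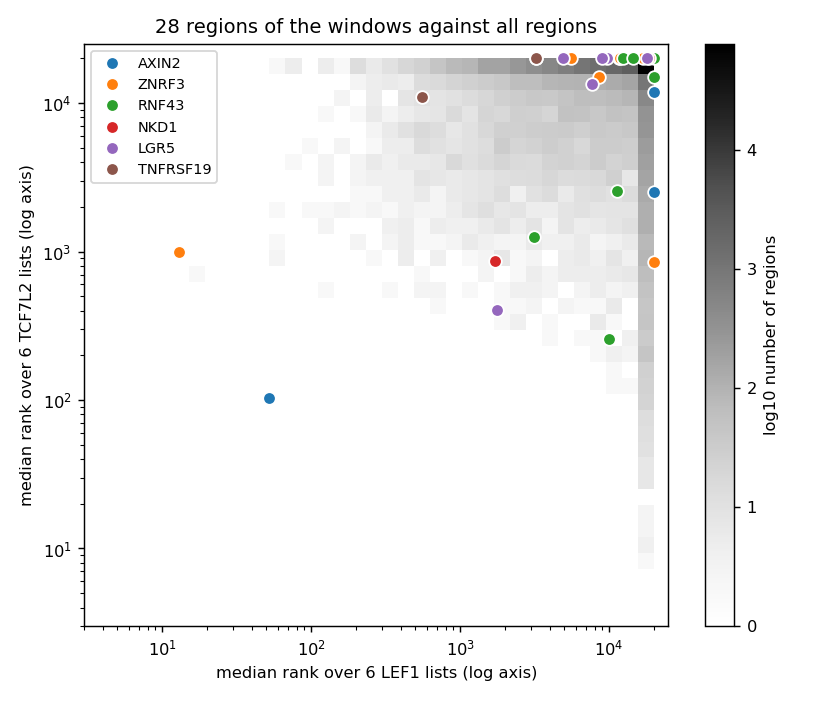
Median rank over the 6 LEF1 lists (x axis, log scale) and over the 6 TCF7L2 lists (y axis, log scale) of the 28 regions with a top peak in all 3 libraries of a group, coloured by gene, on a grey map of the number of regions over the genome (log10 scale). AXIN2 lies at 52 and 102.5 in a corner with few grey cells, and the ZNRF3 region inside the gene lies at 13 and 990.

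Prednisolone and control ranks of the LEF1 regions were separated in 8 of the 45 LEF1 regions of the windows. In 3 regions all prednisolone ranks were better, where 7.77% of the 36912 LEF1 regions of the genome behaved so: the far end of RNF43, an LGR5 region 24.9 kb from the start, and an NKD1 region 69.4 kb from the start. In 5 regions all were worse, against 7.67% of the genome's: 2 at LGR5 and 1 each at TNFRSF19, ZNRF3 and RNF43. These counts lie near the background. Without LEF1 prednisolone 1 the counts were 9 better and 8 worse, and without LEF1 control 1 they included 5 better. Separation is easier to reach with a library fewer, and no genome shares were computed for these counts. The LGR5 region 8.1 kb before the start, chr12:71824846-71826875, ranked 6363, 6578 and 6780 with LEF1 in the controls and 15161, 8584 and 9883 after prednisolone. In NKD1 the region chr16:50650723-50652077 had no LEF1 top peak in the controls and ranked 13084, 17270 and 16439 after prednisolone. With 3 libraries against 3 a separated region has an exact permutation p of 0.1, so none can pass a threshold of 0.05 by itself.

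With TCF7L2, 7 of the 64 regions of the windows had worse ranks in all 3 prednisolone libraries, against 2.24% of the 79360 TCF7L2 regions of the genome. A region can be called worse only if all 3 control libraries have a top peak there. All prednisolone ranks were better in 1 of the 64, the AXIN2 region 7.0 kb before the start, against 0.998%. Requiring a top peak in at least 4 of the 6 lists left 3 of the 7, and no genome share was computed under that filter. Without TCF7L2 control 2, where separation is easier to reach, the better count was 2. The 7 regions that ranked worse were spread over all 6 windows with strong peaks: 2 at LGR5 and 1 each at AXIN2, NKD1, RNF43, ZNRF3 and TNFRSF19. In 4 of them every control library and no prednisolone library had a top peak, a count for which no genome share was computed. These were TNFRSF19 at 48.4 kb and 3 weaker regions. The LGR5 region 8.1 kb before the start ranked 6912, 1183 and 5128 in the controls, the ZNRF3 region 23.7 kb from the start 9982, 3856 and 7823, and the RNF43 region 84.2 kb from the start 10171, 3646 and 6614. Fewer bases of the genome lay under top peaks in the TCF7L2 prednisolone lists as well, 0.370% against 0.446% in the controls, and the part of this in the result was not tested. The share of LEF1 regions with a top peak in all 6 lists was 28.9% in the windows and 20.5% over the genome, and of TCF7L2 regions 14.1% and 2.20%. TCF7L2 regions of the windows thus had top peaks in all lists more often. The share of 2.24% is therefore not one of like regions, and an excess over it was not tested.

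**Figure D4:**
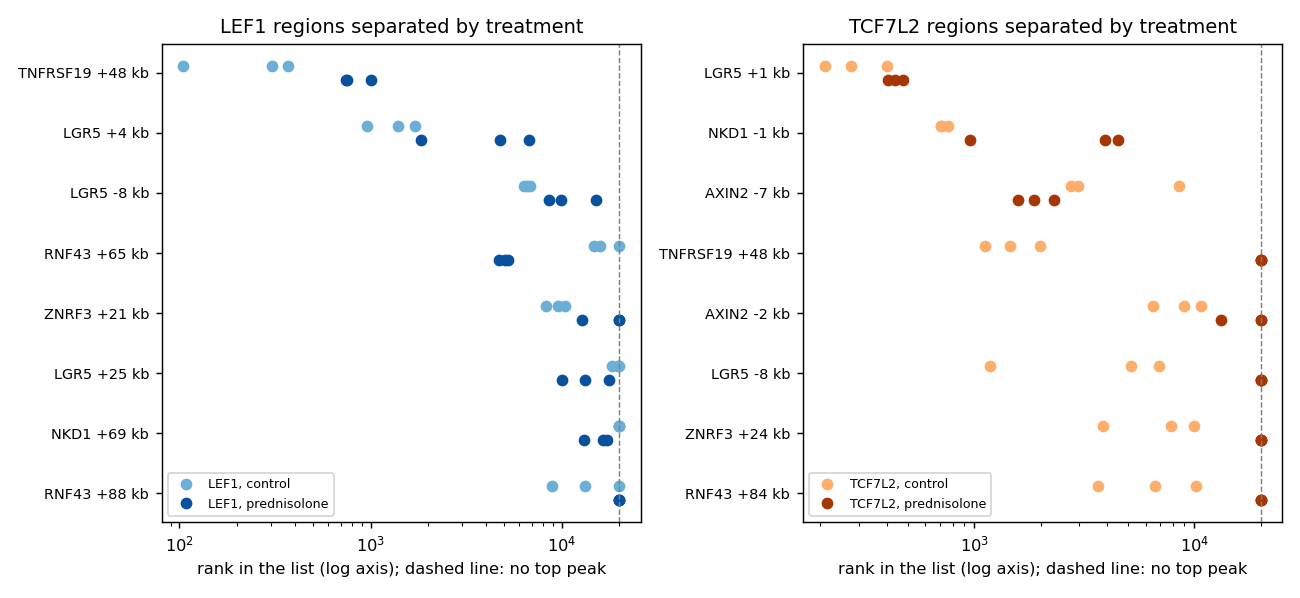
Ranks (x axis, log scale) of the 8 LEF1 and 8 TCF7L2 regions whose control and prednisolone ranks did not overlap, 1 point per library, named by gene and distance of the middle of the region from the start; points on the dashed line had no top peak. In 7 of the 8 TCF7L2 rows the prednisolone points lie to the right of the control points, and at TNFRSF19 all 3 reach the dashed line.

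The share of each window covered by top peaks gave a measure that does not depend on how peaks were merged. With LEF1 it was 12.8% ± 1.27 (SD, n = 6, both treatments) at LGR5, 8.60% ± 2.95 at RNF43, 7.65% ± 0.893 at AXIN2, 6.23% ± 1.29 at ZNRF3, 3.11% ± 1.12 at NKD1, 1.53% ± 0.285 at TNFRSF19, 0.295% ± 0.723 at DKK1 and 0 at SP5. RNF43 and AXIN2 differed by less than their spread. With TCF7L2 the order was RNF43 (6.85% ± 2.07), AXIN2 (6.49% ± 1.28), LGR5 (3.80% ± 0.998), ZNRF3 (1.79% ± 0.672), NKD1 (1.39% ± 0.650), TNFRSF19 (0.260% ± 0.230), SP5 (0.180% ± 0.441) and DKK1 (0.0742% ± 0.182). RNF43 and AXIN2 did not differ beyond their spread, nor did ZNRF3 and NKD1 or the last 3 in the order. Among stretches of the same width over the genome, whose mean was 0.964% with LEF1 and 0.408% with TCF7L2, LGR5 exceeded 99.8% with LEF1, and RNF43 and AXIN2 exceeded 99.8% and 99.6% with TCF7L2. TNFRSF19 exceeded 80.0% and 61.6%.

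In percent of bases, LEF1 top peaks covered more of 4 windows than TCF7L2 top peaks. The difference, TCF7L2 minus LEF1, was -9.03 percentage points at LGR5, -4.44 at ZNRF3 and -1.27 at TNFRSF19 (exact permutation p = 0.005 each), and -1.72 at NKD1 (exact permutation p = 0.025). At NKD1 it passed 0.05 no longer without TCF7L2 control 3 (-1.67, exact permutation p = 0.065). These p-values of the 8 windows are unadjusted. At AXIN2 (-1.17, exact permutation p = 0.13) and RNF43 (-1.76, exact permutation p = 0.18) the antibodies did not differ beyond the spread, although AXIN2 passed without TCF7L2 control 1 (-1.50, exact permutation p = 0.045). LEF1 top peaks were also longer over the genome, with medians of 1138 to 1409 bp against 405 to 594 bp per library, and covered 0.978% of it in the controls against 0.446% with TCF7L2. Divided by that average in each library, an alternative chosen after seeing the data, the share remained lower with TCF7L2 at LGR5 (-4.11 times the average, exact permutation p = 0.005), ZNRF3 (-2.12, exact permutation p = 0.01) and TNFRSF19 (-0.956, exact permutation p = 0.005). At NKD1 the difference was small and of the opposite sign (0.0874, exact permutation p = 0.875). At AXIN2 and RNF43 it turned, with TCF7L2 higher by 7.82 and 7.78 times the average (exact permutation p = 0.005 each). In the controls RNF43 was covered 10.2 ± 2.33 times (SD, n = 3) as much as the genome with LEF1 and 19.1 ± 3.17 times with TCF7L2, and AXIN2 7.30 ± 1.06 and 16.3 ± 1.63 times. NKD1 was covered 2.21 ± 0.117 and 4.04 ± 1.13 times as much.

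**Figure D5:**
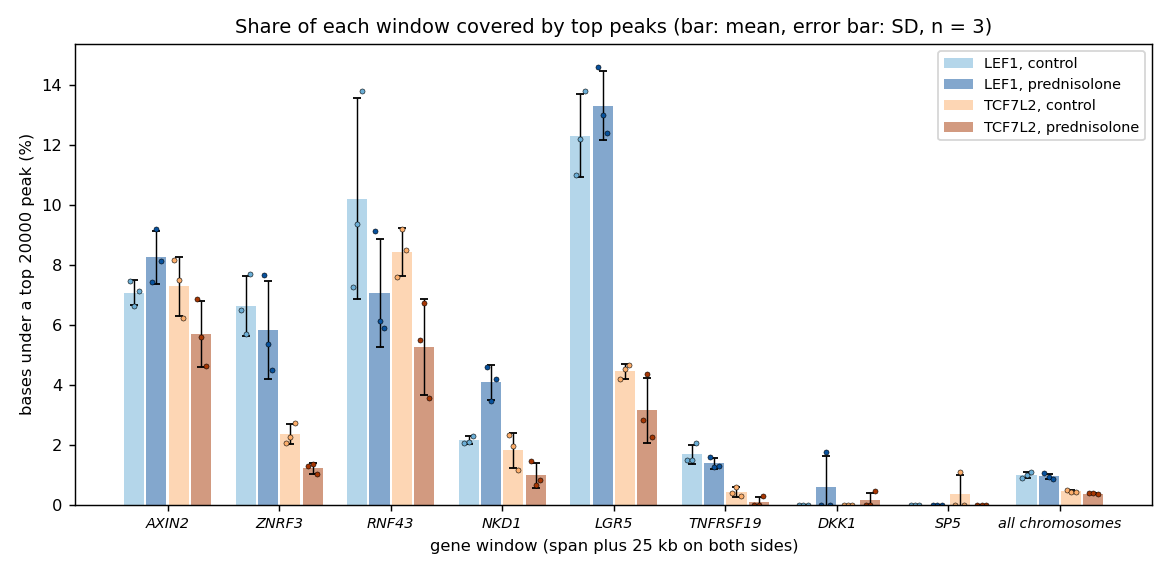
Percent of each window under top peaks (y axis) by group, with bars for the mean, error bars for the SD over 3 libraries and points for the libraries, beside the same share over all chromosomes. LGR5 stands highest with LEF1, and the TCF7L2 prednisolone bars lie below the TCF7L2 control bars at AXIN2, ZNRF3, RNF43, NKD1 and LGR5.

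After prednisolone the NKD1 window was covered to 4.08% ± 0.581 with LEF1 against 2.15% ± 0.133 in the controls (SD, n = 3 each), with no overlap of the groups (exact permutation p = 0.1, the smallest possible). In the full lists the direction turned: the LEF1 shares at NKD1 were 10.8%, 6.83% and 9.10% in the controls and 9.74%, 7.85% and 6.42% after prednisolone. With TCF7L2 the share of top peaks at NKD1 was 0.974% ± 0.428 against 1.81% ± 0.585 (exact permutation p = 0.2). The TCF7L2 share at ZNRF3 was 1.22% ± 0.182 against 2.36% ± 0.339, and at RNF43 5.26% ± 1.60 against 8.43% ± 0.802, both without overlap (exact permutation p = 0.1). Relative to the genome average, ZNRF3 stayed separated, while at RNF43 prednisolone 2 (17 times the average) exceeded control 1 (15.6 times; exact permutation p = 0.2). At AXIN2 the LEF1 share was 8.24% ± 0.885 against 7.07% ± 0.431 and the TCF7L2 share 5.69% ± 1.11 against 7.28% ± 0.990 (exact permutation p = 0.2 each). Within the sets the LEF1 difference at NKD1 was 1.76 and 2.39 percentage points and the TCF7L2 difference -1.58 and -0.105. At AXIN2 the LEF1 difference was 1.18 and 0.554, and the TCF7L2 difference -3.05 in the first set and 0.00663 in the second.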

How the data were processed

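Peaks were analysed in 12 of the 13 samples; the IgG sample was not analysed here. Per the submitters' processing notes the authors used MACS2 and hg19. The MACS2 version, the aligner, the control and duplicate handling are not given in the sources used here. The authors deposited a list per library, with no list pooled over replicates: each peak has a fold ratio over background, a −log10 p-value, a −log10 q-value and a summit offset. The lowest −log10 p-value was 1.3 in every list. Read totals were not used here, so depth is unknown, and 3 replicates per group limit the precision.

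The 8 genes, their spans and all lists were chosen with earlier results of these data known. The 20000 peaks with the highest −log10 p-value were kept from each list, equal peaks taken by position. Peaks overlapping by at least 1 bp were merged. A region's value was its best rank, and 20001 where absent. Control and prednisolone were called separated where their 3 ranks did not overlap. Antibodies were compared by exact two-sided permutation within treatment, 400 relabellings, Benjamini-Hochberg adjusted, on log2 ranks. The standard error is that of the difference of antibody means. Replicate numbers did not pair the libraries. Regions named were the best by median rank per window and those separated, at most 20 by rule, and the DKK1 and SP5 windows. A wider list of Wnt pathway genes was not run because no hg19 annotation was used here. Alternatives covered list length, ranking by fold, window, merging, filters, replicate block, ties and each library left out. 3 were added after seeing the data: the filter of 6 of 12 libraries, full separation of the antibodies, and scaling coverage to the genome. The comparison of treatment effects between antibodies was also added. The scripts were tested on simulated data. Python 3.11.15, numpy 2.4.6, pandas 2.3.3 and matplotlib 3.10.9 were used.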

Additional observations from a re-analysis of the deposited data

Results flagged for a closer look

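The mean share of a window under top peaks rose with LEF1 and fell with TCF7L2 after prednisolone at the flagged windows, NKD1 and AXIN2. At NKD1 the change (prednisolone minus control) was 1.92 percentage points with LEF1 and -0.841 with TCF7L2, a difference of -2.77 (exact permutation of the treatment labels within each antibody, 400 relabellings, p = 0.01). At AXIN2 it was 1.17 with LEF1 and -1.59 with TCF7L2, a difference of -2.76 (exact permutation p = 0.025). Such a p-value is set against no treatment effect with either antibody, so it does not test equal effects. It also ignores the sets. Within them the TCF7L2 change was -1.58 and -0.105 at NKD1, and -3.05 and 0.00663 at AXIN2. The LEF1 change was 1.76 and 2.39 at NKD1, and 1.18 and 0.554 at AXIN2. In none of the 8 windows was an adjustment for the other windows made. LGR5 changed by 1.03 and -1.30, a difference of -2.32 (exact permutation p = 0.08), and the other 5 windows had an exact permutation p of 0.78 or above. Divided by the average over all chromosomes in each library, an alternative chosen after seeing the data, the difference was -3.5 times the average at NKD1 (exact permutation p = 0.01) and -2.45 at AXIN2 (exact permutation p = 0.225). The difference at AXIN2 also passed 0.05 no more without TCF7L2 control 1 (-2.32, exact permutation p = 0.065), control 2 (-2.67, exact permutation p = 0.05) or prednisolone 3 (-2.23, exact permutation p = 0.06). It was also lost with 50000 top peaks (-2.1, exact permutation p = 0.105), with 50 kb flanks (-1.45, exact permutation p = 0.05) and with the full lists (-5.21, exact permutation p = 0.17). The difference at NKD1 was lost with 10000 (-1.2, exact permutation p = 0.08) or 50000 top peaks (-2.25, exact permutation p = 0.15) and with the full lists (-0.651, exact permutation p = 0.775).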

How the results depend on the processing

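Of the counts of regions, those for LEF1 with better and worse prednisolone ranks (3 and 5) became 1 and 3 with 10000 top peaks; 50000 gave 6 better, and 10 regions with every LEF1 rank better than every TCF7L2 rank. Ranking by fold gave 3 LEF1 worse. The gene spans alone gave 3 LEF1 worse, and 0 better and 4 worse with TCF7L2. Gained and lost regions, with a top peak in all libraries of 1 treatment and none of the other, numbered 1 and 1 with LEF1 and 0 and 4 with TCF7L2. No genome share was computed for them. Requiring a top peak in at least 4 of 6 libraries left 3 TCF7L2 worse. Presence judged on peaks with a −log10 q-value from 2 upwards gave 0 and 0 with LEF1 and 0 and 2 with TCF7L2. The added filter of 6 of 12 libraries gave 7 and 4 adjusted antibody calls in place of 0 and 0, but it admits regions through top peaks of 1 antibody alone, so these calls support nothing. With each library left out in turn, the LEF1 counts ranged from 3 to 9 better (5 without LEF1 control 1, 9 without LEF1 prednisolone 1) and from 5 to 8 worse (8 without LEF1 prednisolone 1), and TCF7L2 better from 1 to 2 (2 without TCF7L2 control 2). Separation is easier to reach with a library fewer. The other 129 alternative counts stayed within 1.5 times. Among them are the adjusted antibody calls, which stayed at 0 with each library left out. The smallest possible p could not pass that adjustment with all libraries, so these counts are no sign of stability. The cause of the changed counts was not tested.

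Among window shares, the LEF1 difference between treatments turned sign at RNF43 (1.33) and ZNRF3 (0.0629) with 10000 top peaks, at ZNRF3 (0.482) and LGR5 (-1.03) with 50000, at LGR5 (-5.24) by fold, at TNFRSF19 (0.0104) with 50 kb flanks, and at NKD1 (-0.91) and LGR5 (-1.35) with the full lists. The antibody difference turned at RNF43 (0.904) with 10000 top peaks, at SP5 with 50000 (-0.193), by fold (-0.515), with 50 kb flanks (-0.366) and with the full lists (-0.896), and at DKK1 with a library left out (-0.295 to 0.0742). The AXIN2 start turned to -2.43 in log2 rank by fold. Relative to the genome average the antibody difference turned at AXIN2 (7.82), RNF43 (7.78) and NKD1 (0.0874).

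Same-numbered libraries did not deviate together (correlations from -0.177 to 0.133 over 13063 regions), so the numbers were not taken as pairs. With the replicate block the antibody difference at NKD1 stayed at -1.72 with an exact permutation p of 0.0938, and no other call of the antibody comparison of windows changed.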
